A study of Homo sapiens with 10 samples.

Results

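The mitosis genes described here are 45 human genes of entry into mitosis, the spindle checkpoint and anaphase, the centromere and chromosomal passenger complex, the spindle, cytokinesis and the mitotic chromosome. They were chosen by name, as rows of the count tables whose Ensembl identifiers map to listed mitotic kinases, cyclins, kinesins, checkpoint and condensin genes, and not by their measured values. All 45 of 45 symbols were found among the 59204 human identifiers. All 45 passed the minimum mean count of 20 in total RNA, as did 11797 genes in all. In labelled RNA 44 passed, and UBE2C did not.

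K562, a human line established from a chronic myeloid leukaemia and used here as 1 unmodified culture, received 30 µM 4-thiouridine for 12 h with fresh medium every 3 h. This nucleoside enters new RNA and, once alkylated, gives T-to-C changes in the reads, so RNA made during the pulse carries a label. The cells were washed in cold buffer and chased in 3 mM uridine with 1 µM AZ-5576, with 1 µM JQ1 or with DMSO. AZ-5576 inhibits CDK9, the kinase of P-TEFb that releases RNA polymerase II into elongation, and JQ1 displaces BET bromodomain proteins from acetylated chromatin. There is 1 library for each arm at 2, 4 and 8 h and 1 shared library at 0 h, 10 libraries in all. All 10 share the pulse, and no cells without 4-thiouridine were analysed here.

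Each condition is thus n = 1 and no difference has a replicate check. Libraries held 10293371 to 16008906 total reads, 2031796 to 3868420 labelled reads and 1208073 to 2366155 reads of fly RNA. The fly RNA was added at 5% to the purified RNA, so a level in reads per 1000000 fly reads (RPMF) is relative to RNA mass and not to cells. Human reads per fly read were 9.01, 7.01 and 5.38 at 2, 4 and 8 h in AZ-5576, 7.91, 7.77 and 7.94 in JQ1, 9.64, 8.87 and 9.08 in DMSO, and 8.18 at 0 h. The fly genes of the AZ-5576 2 h and 0 h libraries scattered most about their medians (SD 0.534 and 0.370 log2, against 0.132 to 0.263 in the other 8 libraries), so counts of calls are also given without both. Erythroid genes of K562, such as HBG1 and HBG2, were present in all 10 libraries. The neutrophil gene ELANE had 0 reads and MPO, MS4A1 and CDH5 had 0 to 2. On the list for other cells, KRT8, EPCAM and CD3D did have reads (2423 to 6509, 374 to 902 and 171 to 560). The summed list for other cells ran from 1650 to 4590 and the erythroid list from 84500 to 129000 RPMF. The part of either in the results below was not tested.

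Mitotic genes are made in a wave. Their mRNAs accumulate through late S phase and G2, peak as cells divide and are lost afterwards. Cyclins A and B drive CDK1, PLK1 and the Aurora kinases build the spindle, the checkpoint kinases hold back CDC20 and the anaphase-promoting complex until every kinetochore is attached, and separase then cuts cohesin. The wave is controlled in large part at the promoter, where the MuvB core sits on a cell cycle homology region (TTTGAA in its common form) with the repressor complex DREAM in resting cells and with MYBL2 and FOXM1 in G2, while NF-Y occupies CCAAT boxes. FOXM1 is itself one of the 45 genes. K562 cells divide continuously, and in a bulk sample fewer cells in G2 and mitosis cannot be told apart from less mitotic RNA in each cell.

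Promoter sequence is shown for 7 genes because these letters are what many of the 45 genes have in common beyond their names. The stretches run from 110 bases to 1 base before the RefSeq gene start (GRCh38.p14), all genes being on the plus strand. The GENCODE genes, from which other positions here are taken, begin earlier. They begin before the stretch in PLK1 (23677656), CCNB1 (69167010) and KIF20A (138178719) and within it in the others. Distances to a start are thus to the RefSeq start only. Capitals mark TTTGAA and TTTAAA as well as CCAAT, the last read as ATTGG on the other strand. In CDCA8 the second ATTGG overlaps TTTGAA by 1 letter.
PLK1 (chr16:23678779-23678888, +): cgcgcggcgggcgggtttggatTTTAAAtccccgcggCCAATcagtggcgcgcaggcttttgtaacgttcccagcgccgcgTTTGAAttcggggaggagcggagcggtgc
CDCA8 (chr1:37692406-37692515, +): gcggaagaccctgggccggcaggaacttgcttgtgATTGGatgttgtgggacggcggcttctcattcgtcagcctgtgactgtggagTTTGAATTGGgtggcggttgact
CCNB2 (chr15:59105036-59105145, +): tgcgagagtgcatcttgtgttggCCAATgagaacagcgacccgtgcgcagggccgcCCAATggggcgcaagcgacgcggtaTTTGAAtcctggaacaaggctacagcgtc
INCENP (chr11:62123901-62124010, +): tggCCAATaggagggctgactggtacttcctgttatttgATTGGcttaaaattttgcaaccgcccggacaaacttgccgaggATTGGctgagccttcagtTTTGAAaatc
NCAPG (chr4:17810869-17810978, +): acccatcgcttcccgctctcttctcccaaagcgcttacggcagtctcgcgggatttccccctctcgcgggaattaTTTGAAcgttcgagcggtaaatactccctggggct
CCNB1 (chr5:69167040-69167149, +): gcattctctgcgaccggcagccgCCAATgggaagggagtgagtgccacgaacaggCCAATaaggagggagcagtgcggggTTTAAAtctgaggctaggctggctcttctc
KIF20A (chr5:138179002-138179111, +): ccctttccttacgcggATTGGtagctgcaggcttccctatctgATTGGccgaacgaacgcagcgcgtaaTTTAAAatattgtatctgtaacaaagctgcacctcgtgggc

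In PLK1 the TTTGAA begins 29 bases before the start, as it does in CCNB2, and in CCNB1 a TTTAAA begins 30 bases before it. RefSeq windows from 250 bases before to 50 after a start were matched for 38 of the 45 genes, 50 windows in all. Read on both strands, TTTGAA was in 62.0% of these windows and in 15.2% of all 35116 windows of the same length. CCAAT was in 70.0% and 34.6%, and TTTAAA in 30.0% and 12.2%. Within 40 bases before the start, TTTGAA or TTTAAA lay in 38.0% of the windows of mitosis genes and 3.61% of all windows. These are matches of letters, not mapped binding, and genes were not sorted by expression for this count.

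In the DMSO arm most of the mitosis genes rose. Total RNA of 31 of the 45 genes rose over the chase and 0 fell, beside 24.5% of all genes tested that rose and 3.78% that fell (edgeR quasi-likelihood test of a straight line in log2 per hour, Benjamini-Hochberg adjusted p under 0.05). The median slope was 0.129 log2 per hour for the 45 genes and 0.046 for all genes. Summed over the 45 genes, there were 28500 RPMF at 0 h and 35500, 44400 and 56300 at 2, 4 and 8 h in DMSO. Total RNA was higher at every step of the DMSO series in 30 of 45 genes, against 28.5% of all genes. The labels do not say whether the 0 h cells were taken before or after the wash and the change of medium. A slope from 0 h may therefore also hold these steps, which, like the release from 4-thiouridine, cannot be told apart from DMSO or from time.

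**Figure D1:**
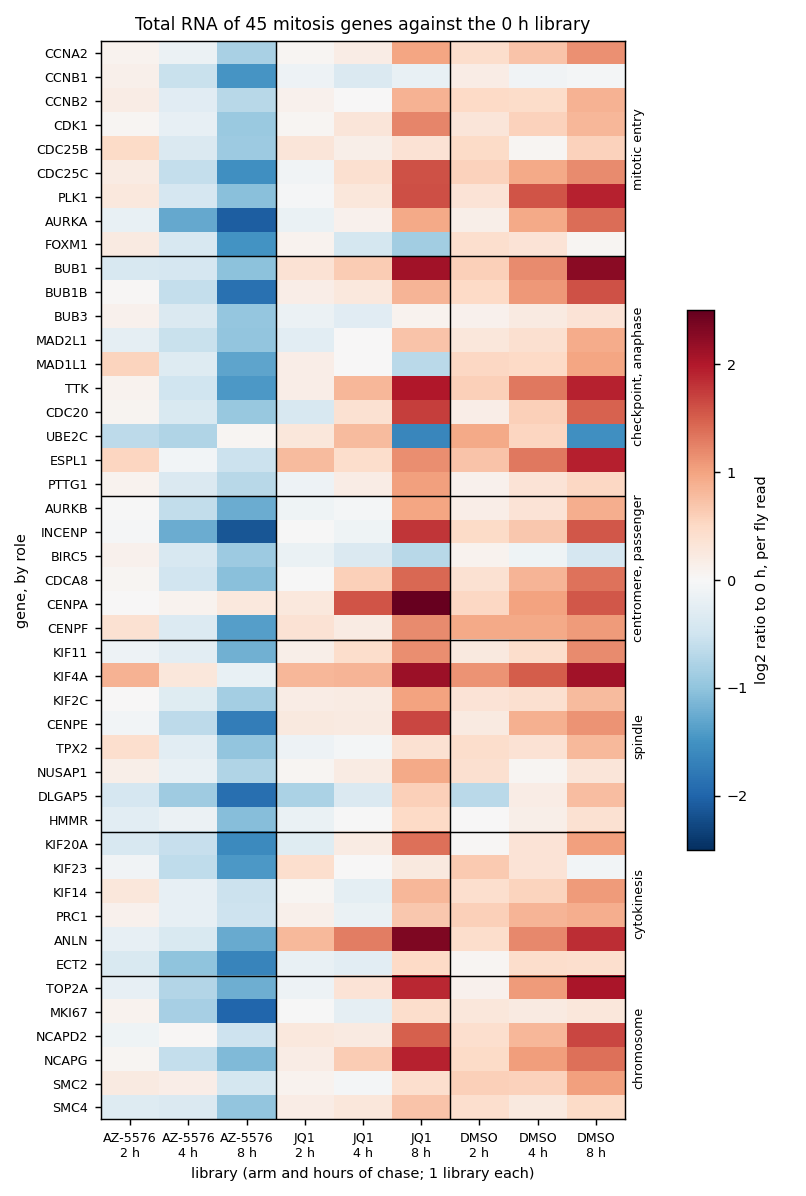
Log2 ratio of total RNA to the 0 h library, per fly read, for 45 mitosis genes (rows, grouped by role) in 9 libraries (columns, 1 library each). Most rows are red at 8 h in JQ1 and DMSO, where the medians were 0.98 and 1.02, against 0.15 and 0.51 for all genes. Most are blue at 8 h in AZ-5576, where the median was −1.04, against −1.01 for all genes.

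Among the genes of mitotic entry, 6 of 9 rose in DMSO, beside 24.5% of all genes. PLK1 (chromosome 16, 23677656 to 23690367, plus strand), a kinase of centrosome maturation and anaphase, had 3250 RPMF at 0 h and 4120, 9640 and 12300 at 2, 4 and 8 h in DMSO. Its slope was 0.263 (SE 0.036, adjusted p = 2.94e-05), and the 8 h value was 3.78 times the 0 h value (exact 95% interval 3.66 to 3.90). The step between 2 and 4 h was its largest. AURKA, the spindle pole kinase, had 1030 at 0 h and 1130, 2000 and 2720 in DMSO at those times, with a slope of 0.197. CCNA2, the S and G2 cyclin, had 799 and then 1080, 1310 and 1760. CDK1, the kinase that the mitotic cyclins drive, had 1480 and then 1840, 2210 and 2640. All of these rose at each step. CCNB1, the main mitotic cyclin, did not: it had 1600 at 0 h and 1820, 1500 and 1550 in DMSO (slope −0.026, adjusted p = 0.536). FOXM1, the transcription factor of the G2 wave, had 293 at 0 h and 393, 372 and 303, with a slope of −0.034 (adjusted p = 0.52). CCNB2, the other B-type cyclin of mitosis, rose at 0.101 (adjusted p = 0.0185).

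Of the 10 checkpoint and anaphase genes 7 rose in DMSO, beside 24.5% of all genes. BUB1, a kinetochore kinase of the checkpoint, had the highest slope of the 45, 0.301 (SE 0.038, adjusted p = 1.25e-05), with 51.4 RPMF at 0 h and 77.8, 116 and 246 in DMSO. TTK, the kinase that starts the checkpoint signal, had 87.9 at 0 h and 133, 219 and 335, a slope of 0.244. BUB1B, which encodes the checkpoint protein BUBR1, had 197 and then 277, 417 and 590, and CDC20, the activator that the checkpoint restrains, had 1270 and then 1430, 1930 and 3550. These 4 increased at every step. PTTG1, the securin that holds separase until anaphase, had a shallower series, 1950 at 0 h and 2110, 2480 and 2810, with a slope of 0.077 (adjusted p = 0.0428). Its copies PTTG2 and PTTG3P held 5.711% as many reads as PTTG1 itself, so reads could be split between them. UBE2C, the ubiquitin-conjugating enzyme of the anaphase-promoting complex, had 11 to 62 raw reads in the 10 libraries and is too thinly counted to be read further.

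Of the 6 centromere and passenger genes 5 rose in DMSO, beside 24.5% of all genes. AURKB, the passenger kinase, had 524 at 0 h and 585, 664 and 982 in DMSO. CENPA (chromosome 2, 26764289 to 26801067, plus strand), the histone variant of centromeres, had 98.7 and then 141, 198 and 289, and INCENP, the scaffold of the passenger complex, had 83.8 and then 118, 133 and 246. BIRC5, which encodes survivin, went the other way, with 2470 at 0 h and 2610, 2280 and 1860 in DMSO (slope −0.066, adjusted p = 0.064). Within the passenger complex, then, 3 genes rose (AURKB, INCENP and CDCA8) while the estimate for BIRC5 was below 0.

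Of 8 spindle genes 5 rose in DMSO, of 6 cytokinesis genes 4 and of 6 chromosome genes 4, beside 24.5% of all genes. TOP2A, the topoisomerase that untangles sister chromatids, had the second highest slope, 0.292 (SE 0.033, adjusted p = 4.5e-06), with 277 RPMF at 0 h and 298, 580 and 1150 in DMSO. KIF20A, a kinesin of the central spindle, had 214 and then 219, 269 and 438. MKI67, the Ki-67 coat protein of mitotic chromosomes, had 539 and then 656, 631 and 651, with a slope of 0.019 (adjusted p = 0.72). KIF23, another central spindle kinesin, had 329 and then 518, 417 and 312. The motor KIF4A and the condensin subunit NCAPD2 rose at 0.212 and 0.216. The rise of the list rests much on the last library: without DMSO 8 h 9 genes were called, and without any other single library 27 to 33. Scaled by TMM, whose factors come from each library's own genes, 28 rose and 3 fell, beside 17.0% and 15.4% of all genes. Of 19 genes with TTTGAA or TTTAAA within 40 bases before the start, 15 rose in DMSO with a median slope of 0.150, and of 19 matched genes without it 14 rose with a median of 0.129.

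**Figure D2:**
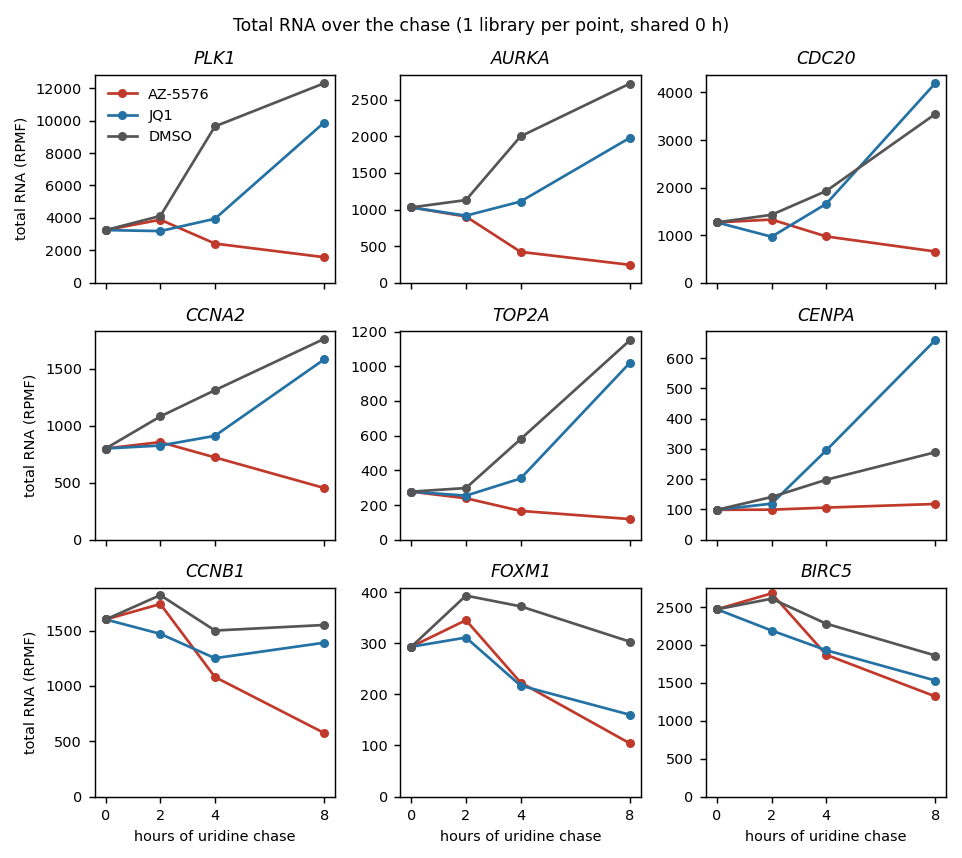
Total RNA in reads per 1000000 fly reads (RPMF, vertical axes, each from 0) against hours of chase for 9 genes, 1 library per point with a shared 0 h point, in AZ-5576, JQ1 and DMSO. PLK1, AURKA, CDC20, CCNA2 and TOP2A climb in DMSO and JQ1 and sink in AZ-5576, CENPA is highest in JQ1, and CCNB1, FOXM1 and BIRC5 had no rise past the threshold in any arm.

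Under the CDK9 inhibitor the rise was not seen. Relative to DMSO, that is in slope minus the DMSO slope, total RNA of 43 of 45 mitosis genes fell in AZ-5576 and 0 rose, the exceptions being BIRC5 and UBE2C. Of all genes 73.3% fell and 0.559% rose, so this was the direction of most genes. The median difference of slopes was −0.253 log2 per hour for the 45 genes and −0.194 for all genes. At 8 h the median ratio to DMSO was −2.14 log2 for the 45 genes and −1.63 for all, and with TMM scaling −0.67 and −0.16. Summed over the 45 genes, there were 30400, 21600 and 14100 RPMF at 2, 4 and 8 h in AZ-5576, against 35500, 44400 and 56300 in DMSO. AZ-5576 was below DMSO at all 3 times in 39 of 45 genes, and in 66.5% of all genes.

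The gap has parts from both arms. From the 0 h level the median slope in AZ-5576 was −0.125 for the mitosis genes and −0.134 for all genes, and 36 of 45 fell and 0 rose, beside 69.2% and 0.356% of all genes. Without the AZ-5576 8 h library 0 were called, and with TMM scaling 6 fell and 4 rose, beside 13.4% and 8.26% of all genes. In DMSO the medians were 0.129 and 0.046. The medians of the mitosis genes and of all genes thus lay close in AZ-5576 and further apart in DMSO, a comparison for which no test was run. The comparisons with AZ-5576 and with JQ1 share the DMSO libraries.

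The largest differences between AZ-5576 and DMSO were in the passenger scaffold, a spindle pole kinase and the checkpoint kinases. INCENP had 82.3, 35.4 and 19.0 RPMF at 2, 4 and 8 h in AZ-5576, against 118, 133 and 246 in DMSO. Its slope differed by −0.449 (SE 0.059, adjusted p = 8.49e-07), and at 8 h it was at 7.73% of DMSO (exact 95% interval 5.55% to 10.5%). AURKA (chromosome 20, 56369389 to 56392337, minus strand) had 905, 423 and 246 in AZ-5576, against 1130, 2000 and 2720 in DMSO. Its difference was −0.443 (SE 0.038, adjusted p = 8.33e-09), with 9.07% of the DMSO level left at 8 h. TTK had 94.0, 62.0 and 32.5 in AZ-5576, against 133, 219 and 335 in DMSO, a difference of −0.417. BUB1B had 200, 131 and 54.1, against 277, 417 and 590, a difference of −0.416. BUB1, with 38.9, 38.1 and 25.4 in AZ-5576 against 77.8, 116 and 246 in DMSO, was at −0.411. In each of these 5 genes the AZ-5576 values went down with time, the DMSO values went up, and every AZ-5576 value lay below every DMSO value.

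The other genes of the panel differed in how early AZ-5576 left DMSO. PLK1 had 3890, 2420 and 1580 in AZ-5576 at 2, 4 and 8 h, against 4120, 9640 and 12300 in DMSO. It was thus at 94.6% of DMSO at 2 h and at 12.9% at 8 h, with a slope difference of −0.382 (SE 0.043, adjusted p = 1.36e-07). CDC20 had 1330, 975 and 658 in AZ-5576, against 1430, 1930 and 3550 in DMSO (−0.279). TOP2A had 239, 166 and 119, against 298, 580 and 1150 (−0.404). KIF20A had 162, 144 and 71.4, against 219, 269 and 438 (−0.301). In these 4 genes the gap was wider at each later time, and at 8 h TOP2A was at 10.4% of DMSO, KIF20A at 16.3% and CDC20 at 18.5%.

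The cyclins and CDK1 were lower by less. CCNA2 had 855, 721 and 453 RPMF in AZ-5576, against 1080, 1310 and 1760 in DMSO (−0.234). CDK1 had 1520, 1300 and 777, against 1840, 2210 and 2640 (−0.210). CCNB1 had 1740, 1080 and 574, against 1820, 1500 and 1550 (−0.159). All 3 passed the test (adjusted p 1.77e-06, 3.97e-06 and 0.00015), but they lay at the 38.5, 45.5 and 59.7 percentiles of all genes, and with TMM scaling the estimate for CCNB1 turned to 0.014. AURKB had 522, 342 and 222, against 585, 664 and 982 (−0.253). MKI67 had 572, 302 and 136, against 656, 631 and 651 (−0.268), and its slope from 0 h, −0.249, was the lowest of the 45 in AZ-5576. FOXM1 had 345, 223 and 104 in AZ-5576, against 393, 372 and 303 in DMSO (−0.185).

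At the other end, NUSAP1, a microtubule-bundling protein, had 1000, 797 and 542 in AZ-5576, against 1200, 939 and 1130 in DMSO (−0.119, adjusted p = 0.00232). PTTG1 had 2090, 1530 and 1210, against 2110, 2480 and 2810 (−0.149). With TMM scaling the estimates for NUSAP1 and PTTG1 were above 0, at 0.056 and 0.025. BIRC5 had 2680, 1870 and 1320, against 2610, 2280 and 1860, a difference of −0.060 (SE 0.027, adjusted p = 0.0527). It was the gene closest to DMSO at 8 h, at 70.8% (exact 95% interval 67.4% to 74.4%). The thinly counted UBE2C was above DMSO at 8 h, with 20.3 against 6.81 RPMF. CENPA, at 99.2, 106 and 118 in AZ-5576 against 141, 198 and 289 in DMSO, was the only one of the 45 with a slope estimate above 0 from 0 h in AZ-5576 (0.033), and it still fell relative to DMSO (−0.178).

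By role, 9 of 9 entry genes, 9 of 10 checkpoint genes, 5 of 6 centromere and passenger genes and all of the 8 spindle, 6 cytokinesis and 6 chromosome genes fell relative to DMSO, with medians of −0.210, −0.266, −0.275, −0.233, −0.238 and −0.263. Of all genes 73.3% fell, with a median of −0.194. DESeq2 called 44 of 45 in the same direction, beside 73.5% of all genes. A fit with time levels in place of slopes called 0 of 45, beside 2.47% of all genes. It gives each inhibitor a constant offset from DMSO, so a gap that widens with time enters its scatter. In that fit 31 of the 45 had an unadjusted p under 0.05, beside 5198 of all 11797 genes. All 45 estimates were below 0 (median −1.003 log2), as were 10995 of all genes (median −0.823). With TMM scaling 24 fell and 2 rose, beside 27.6% and 20.6% of all genes, and the median was −0.081 against −0.020 for all genes. Without the AZ-5576 8 h library 31 were called, and without the 0 h and AZ-5576 2 h libraries 44.

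**Figure D3:**
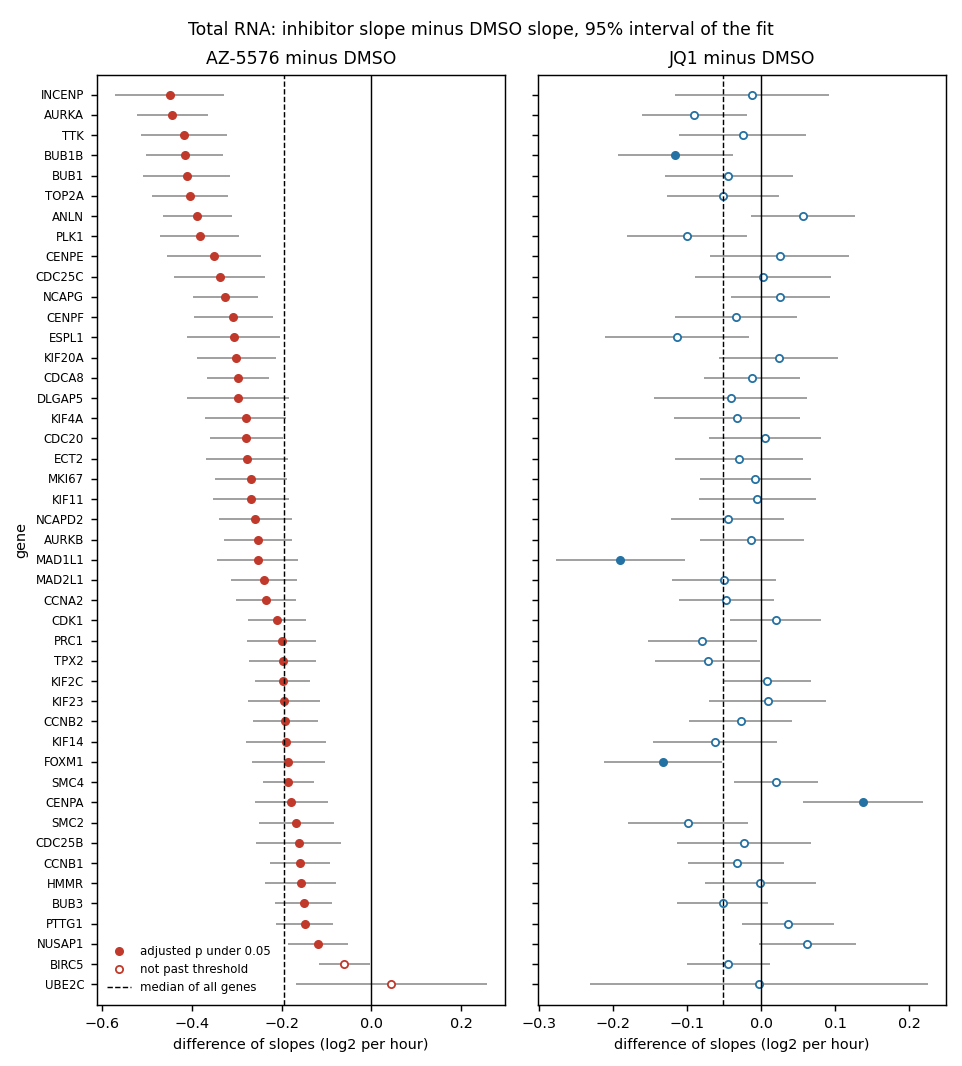
Difference of total RNA slopes (log2 per hour, horizontal axes) between AZ-5576 and DMSO (left) and between JQ1 and DMSO (right) for 45 genes, with the fit's 95% interval. Filled points passed an adjusted p of 0.05 (43 on the left, 4 on the right), and the dashed lines are the medians of all genes, −0.194 and −0.051.

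Under JQ1 most mitosis genes, like most genes, were below DMSO per fly read at 2 and 4 h, and the mitosis genes were level with it at 8 h. At 2 and 4 h in JQ1, 42 and 39 of the 45 genes were below DMSO, with medians of −0.30 and −0.44 log2, and at 8 h 23 were below and 22 above, with a median of 0.0. Of all genes 82.4%, 75.7% and 72.3% were below DMSO at these times, with medians of −0.33, −0.29 and −0.31. The pattern depends on the scaling. With TMM 18, 29 and 7 of the 45 genes were below DMSO at 2, 4 and 8 h, with medians of 0.03, −0.16 and 0.33, beside 49.0%, 50.3% and 48.8% of all genes. The summed total RNA of the 45 genes was 28400, 31400 and 56500 RPMF in JQ1, against 35500, 44400 and 56300 in DMSO. Over the whole series, 3 of 45 genes fell relative to DMSO and 1 rose, beside 16.2% and 1.79% of all genes. An unadjusted p under 0.05 was found in 10 of 45, beside 3868 of all 11797 genes. From the 0 h level 25 rose and 3 fell in JQ1, beside 15.0% and 17.3% of all genes (28 in all, 2 without the JQ1 8 h library).

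MAD1L1, the kinetochore anchor of MAD2, had the largest difference, with 259, 233 and 145 RPMF at 2, 4 and 8 h in JQ1, against 334, 325 and 456 in DMSO. Its slope differed by −0.190 (SE 0.042, adjusted p = 0.00348), and at 8 h it was at 31.8% of DMSO (exact 95% interval 27.5% to 36.6%). FOXM1 had 311, 217 and 160 in JQ1, against 393, 372 and 303 in DMSO, a difference of −0.132 (SE 0.038, adjusted p = 0.0187). BUB1B had 221, 235 and 356, against 277, 417 and 590, at −0.116 (adjusted p = 0.0338). All 3 were lower in JQ1 at every time. CENPA rose relative to DMSO, by 0.137 log2 per hour (SE 0.039, adjusted p = 0.0169). It had 119, 295 and 660 in JQ1, against 141, 198 and 289 in DMSO, and so was at 84.2% of DMSO at 2 h and at 229% at 8 h (206% to 254%). CENPA overlaps SLC35F6 and BUB1B overlaps BUB1B-PAK6 on the same strand, and the sources used here do not say how reads of such pairs were assigned.

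The other genes of the panel had no called difference of slopes between JQ1 and DMSO. PLK1 had 3190, 3950 and 9880 in JQ1, against 4120, 9640 and 12300 in DMSO. That is 77.6%, 41.0% and 80.5% of DMSO, and the slope difference of −0.100 (95% interval −0.181 to −0.019) had an adjusted p of 0.0793. AURKA had 917, 1110 and 1980, against 1130, 2000 and 2720 (−0.090, adjusted p = 0.0712). TOP2A had 254, 353 and 1020, against 298, 580 and 1150, and CCNA2 had 825, 910 and 1580, against 1080, 1310 and 1760. These 4 lay below DMSO at each time, with a ratio to DMSO nearer to 1 at 8 h than at 4 h. ESPL1, which encodes separase, had the fourth lowest slope difference of the 45, −0.113 (adjusted p = 0.0958).

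Other panel genes were above DMSO at 8 h. CDC20 had 969, 1660 and 4200 in JQ1, against 1430, 1930 and 3550 in DMSO, 67.8% of DMSO at 2 h and 118% at 8 h. CDK1 had 1540, 1850 and 3440, against 1840, 2210 and 2640, and was at 130% at 8 h. PTTG1 had 1780, 2210 and 3980, against 2110, 2480 and 2810 (0.036, adjusted p = 0.422), and KIF20A had 175, 248 and 556, against 219, 269 and 438. AURKB had 488, 510 and 1040, against 585, 664 and 982, and MKI67 had 531, 464 and 732, against 656, 631 and 651. In these 6 genes JQ1 was lower at 2 and 4 h and higher at 8 h. CCNB1 and BIRC5 stayed lower throughout, CCNB1 with 1470, 1250 and 1390, against 1820, 1500 and 1550, and BIRC5 with 2190, 1930 and 1530, against 2610, 2280 and 1860. ANLN, a scaffold of the contractile ring, was higher in JQ1 at every time, 281, 386 and 800, against 216, 368 and 576 in DMSO (0.057, adjusted p = 0.257). NUSAP1 had 952, 1060 and 1770, against 1200, 939 and 1130 (0.062, adjusted p = 0.173).

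JQ1 calls were few and moved with single libraries. They numbered 1 without JQ1 4 h, 0 without DMSO 8 h and 7 without the 0 h and AZ-5576 2 h libraries. With time levels 0 were called (0.0% of all genes), and 0 had an unadjusted p under 0.05, beside 1081 of all 11797 genes. With TMM scaling 1 gene fell and 7 rose relative to DMSO, beside 7.72% and 5.49% of all genes, with a median of 0.024. A gap that is open at 4 h and closed at 8 h gives little difference of slopes, and 8 h was the last time sampled.

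Set directly against JQ1, total RNA in AZ-5576 fell in 40 of 45 genes and rose in 0, beside 55.0% and 0.822% of all genes. The median difference was −0.230 log2 per hour, against −0.129 for all genes. The 5 not called were SMC2, MAD1L1, FOXM1, BIRC5 and UBE2C, at −0.069, −0.064, −0.052, −0.015 and 0.047. MAD1L1 and FOXM1 are also the genes with the lowest slope differences between JQ1 and DMSO. The largest differences were in ANLN (−0.444, SE 0.038, adjusted p = 6.84e-09) and INCENP (−0.437). At 8 h INCENP had 19.0 RPMF in AZ-5576 and 290 in JQ1, and ANLN had 66.4 and 800. Without JQ1 8 h 18 genes were called and without AZ-5576 8 h 20. With time levels 0 were called, beside 1.19% of all genes. In that fit 17 had an unadjusted p under 0.05, beside 2389 of all 11797 genes. With TMM scaling 31 were lower and 2 higher, beside 26.5% and 21.8% of all genes.

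The label marks RNA made during the pulse. Unlabelled reads hold RNA made during the chase and RNA made before the pulse, and were present already at 0 h. Labelled reads of the 45 genes summed to 18200, 12100 and 7310 RPMF at 2, 4 and 8 h in AZ-5576, to 15400, 11500 and 7200 in JQ1 and to 18500, 12900 and 6790 in DMSO, with 17700 at 0 h. Unlabelled reads summed to 12300, 9480 and 6790 in AZ-5576, to 13000, 19900 and 49300 in JQ1 and to 16900, 31500 and 49500 in DMSO, with 10800 at 0 h. At 8 h AZ-5576 and DMSO thus lay close in labelled reads and far apart in unlabelled reads. Unlabelled reads also include reads of pulse-made RNA that carried no call, so they are not pure new RNA.

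**Figure D4:**
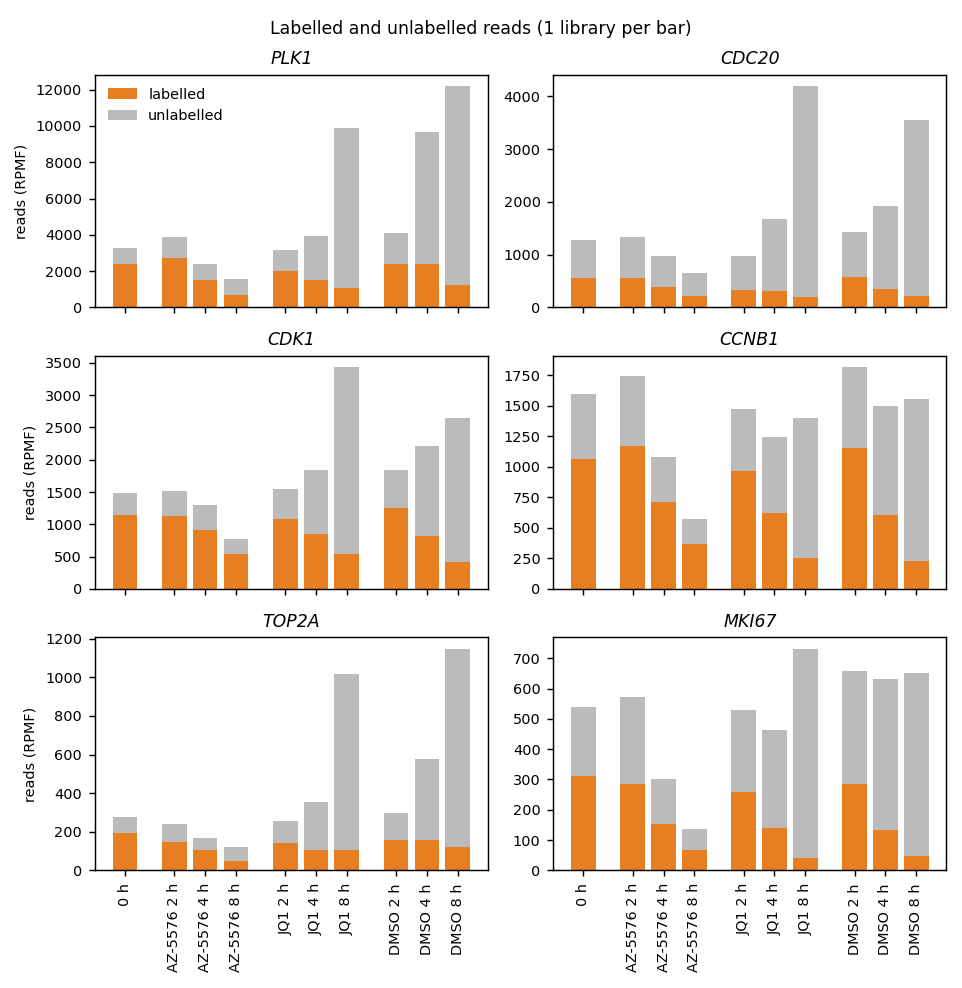
Labelled (orange) and unlabelled (grey) reads in RPMF, stacked, in 10 libraries for 6 genes, 1 library per bar. Orange is lower at 8 h than at 0 h in every arm, though it does not shrink at every step. Grey builds up in JQ1 and DMSO and not in AZ-5576, where unlabelled PLK1 was at 892 at 8 h against 11000 in DMSO.

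At 0 h, after 12 h of pulse, the median labelled share was 66.5% for 44 mitosis genes and 53.8% for all 8817 genes tested, the ends being MAD1L1 at 31.9% and BUB1B at 88.0%. At 8 h it was 52.4% in AZ-5576, 10.8% in JQ1 and 11.2% in DMSO, and for all genes 43.3%, 12.7% and 10.3%. In PLK1 70.2%, 61.8% and 43.5% of reads were labelled at 2, 4 and 8 h in AZ-5576, 63.1%, 38.0% and 10.8% in JQ1 and 57.5%, 25.0% and 9.97% in DMSO. CDK1 kept 70.5% labelled at 8 h in AZ-5576 (exact 95% interval 68.4% to 72.6%), against 15.5% in DMSO (14.5% to 16.6%). In CCNB1 the shares at 8 h were 63.9% and 14.8%, and in MKI67 48.9% and 7.23%. High shares in AZ-5576 went with low totals in all 4 genes.

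Labelled RNA fell in DMSO in 40 of 44 genes and rose in 0, beside 88.3% and 0.0454% of all genes. The median slope was −0.201 log2 per hour, against −0.223 for all genes. The inverse of the slope is a half-life that also holds dilution by growth. The fastest losses were in MAD1L1, at −0.433 (half-life 2.31 h, 95% interval 1.80 to 3.24), FOXM1 at −0.414 (2.41 h, 1.92 to 3.25), ECT2, the exchange factor that turns on RhoA for cytokinesis, at −0.386 (2.59 h) and MKI67 at −0.385 (2.60 h). Labelled reads at 8 h in DMSO were few, at 13 for MAD1L1, 25 for FOXM1, 16 for ECT2 and 83 for MKI67. Labelled FOXM1 went down through 141, 70.9 and 14.2 RPMF at 2, 4 and 8 h in DMSO, after 109 at 0 h. MKI67 had 312 at 0 h and 286, 134 and 47.1 in DMSO. CCNB1, with 1060 and then 1150, 601 and 230, had a half-life of 3.12 h, and AURKA, with 743 and then 572, 346 and 145, one of 3.32 h.

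At the slow end stood BUB1 at −0.023 (adjusted p = 0.715), PTTG1 at −0.065 (15.3 h, 8.03 to 165), TOP2A at −0.076 (adjusted p = 0.0606) and SMC2, a condensin ATPase, at −0.086 (adjusted p = 0.0649). TTK, at −0.103, was the fourth not called (adjusted p = 0.0528). BUB1 was thinly counted, with 44 labelled reads at 0 h and 49, 54 and 47 at 2, 4 and 8 h in DMSO. Labelled TOP2A had 195 at 0 h and 156, 157 and 119 in DMSO, and labelled PTTG1 had 1200 and then 1370, 1230 and 857. Labelled PLK1 had 2400 at 0 h and 2370, 2410 and 1220, so it did not go down over the first 4 h, when total PLK1 climbed to 9640. BUB1, TOP2A, PLK1 and TTK are the 4 genes with the highest total slopes in DMSO, and of these PLK1 alone had a called loss of label (−0.140, half-life 7.15 h, 5.02 to 12.4). A straight line does not describe a plateau followed by a drop, and whether labelled reads were still gained during the early chase was not tested.

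The remaining panel genes lay between. CDK1 had labelled levels of 1140 at 0 h and 1250, 827 and 411 in DMSO (half-life 4.85 h), CCNA2 512 and then 541, 395 and 180 (4.70 h), and CDC20 566 and then 571, 355 and 223 (5.69 h). AURKB and BIRC5 had half-lives of 4.57 and 4.03 h, KIF20A 4.10 h and BUB1B 5.74 h. Their 95% intervals overlap, so no order among these 7 genes is given. Without DMSO 8 h 17 genes were called, and with TMM scaling, which removes the common loss of label, 9 fell and 10 rose, beside 26.3% and 22.9% of all genes, and the estimates for PLK1, CDK1, CCNA2, CDC20, BUB1B and PTTG1 were above 0.

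**Figure D5:**
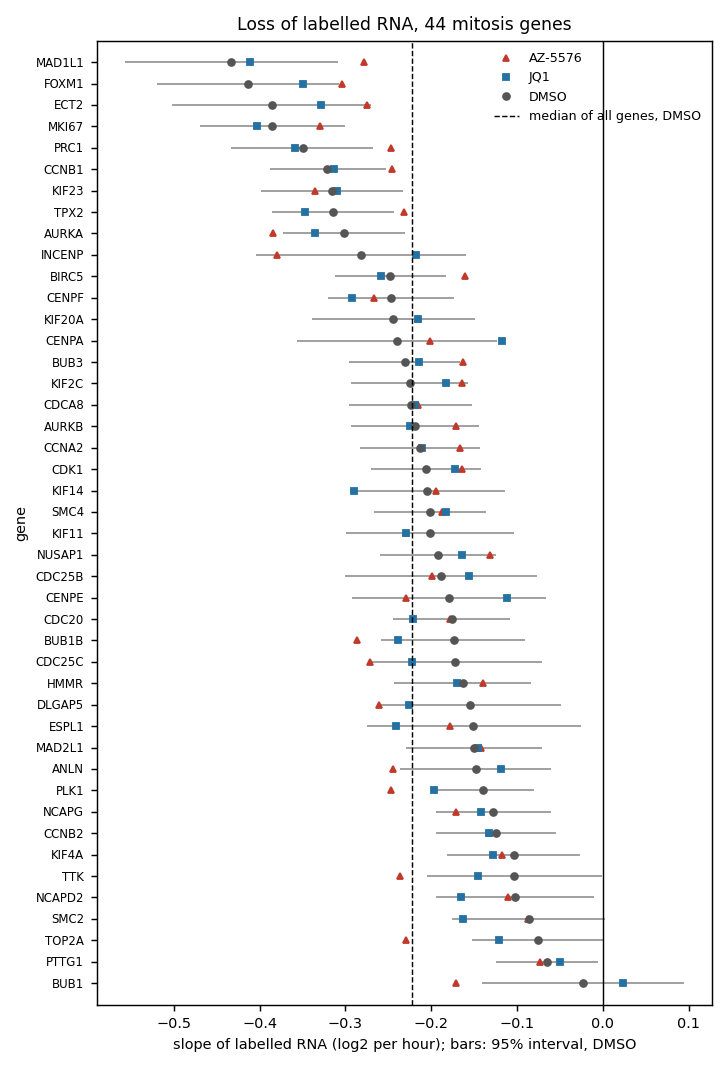
Slope of labelled RNA (log2 per hour, horizontal axis) for 44 genes in AZ-5576 (triangles), JQ1 (squares) and DMSO (circles, with 95% interval), ordered by DMSO. The dashed line is the median of all genes in DMSO, −0.223, and the genes run from −0.433 for MAD1L1 to −0.023 for BUB1.

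Few genes differed between arms in their loss of label. Relative to DMSO, labelled RNA under AZ-5576 fell faster in 2 of 44 genes and more slowly in 0, beside 1.22% and 3.53% of all genes. The median difference was −0.001 log2 per hour and the range −0.153 to 0.154. An unadjusted p under 0.05 was found in 14 of 44, beside 1525 of all 8817 genes. The 2 genes were TOP2A, at −0.153 (SE 0.042, adjusted p = 0.0142), and PLK1, at −0.107 (SE 0.031, adjusted p = 0.0185). Labelled TOP2A had 146, 107 and 47.3 in AZ-5576, against 156, 157 and 119 in DMSO, and labelled PLK1 had 2730, 1490 and 687, against 2370, 2410 and 1220. Both are genes whose label was flat in DMSO between 2 and 4 h. BUB1, TTK and BUB1B followed at −0.148, −0.133 and −0.111 (adjusted p 0.186, 0.156 and 0.149). On the other side MAD1L1, ECT2, FOXM1 and PRC1, the cross-linker of the central spindle, had estimates of 0.154, 0.111, 0.110 and 0.103 (adjusted p 0.14, 0.312, 0.236 and 0.125). The DMSO slopes of these genes, low for the last 4 and high for TOP2A, BUB1 and TTK, enter the differences themselves.

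Between JQ1 and DMSO 0 of 44 labelled slopes differed past the threshold in edgeR and 0 in DESeq2. Of all genes 0.318% lost label more slowly and 0.352% faster in edgeR. In edgeR 1 of 44 had an unadjusted p under 0.05, beside 657 of all 8817 genes. Estimates ran from −0.090 for ESPL1 (95% interval −0.224 to 0.043) to 0.121 for CENPA (0.006 to 0.236), which had an adjusted p of 0.613. Between AZ-5576 and JQ1 labelled BUB1 fell faster (−0.194, adjusted p = 0.0395) and TPX2, an activator of Aurora A, and BIRC5 more slowly (0.115 and 0.097, adjusted p 0.0217 and 0.0434), beside 1.03% and 4.53% of all genes. These counts moved with the setting. Against DMSO, leaving out 1 library gave 0 calls without AZ-5576 8 h or DMSO 8 h, 1 without AZ-5576 4 h or DMSO 4 h, 5 without DMSO 2 h, 7 without 0 h and 2 otherwise. Against JQ1 it gave 0 without AZ-5576 2 h, AZ-5576 8 h or JQ1 8 h, 1 without AZ-5576 4 h, JQ1 2 h or DMSO 4 h, 7 without 0 h and 2 to 4 otherwise. In both comparisons, with time levels 0 were called in each (0.034% and 0.25% of all genes), and without the low-count filter 0 were called between AZ-5576 and JQ1. TMM scaling gave 8 calls against DMSO and 9 against JQ1, all of them lower in AZ-5576, as were 3.75% and 3.6% of all genes.

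A wider list of mitotic genes was counted in the same way. Of 121 further mitotic genes tested, 110 fell relative to DMSO in AZ-5576 (median −0.226), beside 73.3% of all genes. In JQ1 8 fell and 0 rose, beside 16.2% and 1.79% of all genes, and in DMSO from 0 h 45 rose and 1 fell (median 0.077), beside 24.5% and 3.78%. With TMM scaling 48 fell and 19 rose in AZ-5576, beside 27.6% and 20.6% of all genes. With that scaling 2 fell and 12 rose in JQ1, beside 7.72% and 5.49%. In DMSO, so scaled, 39 rose and 19 fell from 0 h, beside 17.0% and 15.4%. The lowest in AZ-5576 were the histone H3 kinase gene HASPIN at −0.793, MAD2L1BP, which encodes the MAD2 partner p31comet, at −0.755, and the centromere gene CENPC at −0.549. The highest were the anaphase-promoting complex subunit ANAPC11 at −0.043, CENPM at −0.038 and CENPN at −0.018, none past the threshold. Of 47 genes of the G1/S transition and DNA replication, which precede mitosis, 43 fell in AZ-5576 (median −0.190, against −0.194 for all genes), 7 fell and 1 rose in JQ1, and 12 rose and 1 fell in DMSO (median 0.052, against 0.046 for all genes). With TMM scaling 11 fell and 9 rose in AZ-5576, 2 fell and 7 rose in JQ1, and 9 rose and 8 fell in DMSO. The shares of all genes with TMM scaling are those given above for the wider list. No test between the lists was run. Reads of overlapping genes are a limit for single genes. Of the 45 genes 18 overlap a gene on the other strand and 6 overlap one on the same strand. No source used here gives the strand setting of the counting.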

How the data were processed

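Total and labelled RNA were measured in 10 K562 libraries by 3′ end sequencing (QuantSeq, forward). The authors deposited raw read counts per gene in 3 tables, total human reads, reads named nascent (called labelled here) and fly reads. Builds hg38 and dm6 and the tools bedtools, Trim Galore (0.6.5) and bcl2fastq (2.17.1.14) are named in the submitters' processing notes. The aligner, the counter, the annotation and the rule for a labelled read are not given in the sources used here.

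Counts were fitted with edgeR 4.0.16 (quasi-likelihood, R 4.3.3), with each library's fly read total as its scale, a minimum mean count of 20 per gene, a common 0 h level and 1 slope per hour for each arm, which leaves 6 residual degrees of freedom. P-values were Benjamini-Hochberg adjusted over all genes tested, with a threshold of 0.05. They measure the scatter of single libraries about straight lines, so biology, handling and curvature all enter them. The biological coefficient of variation was 0.205 for total and 0.188 for labelled RNA. A half-life is the inverse of a negative slope. Unlabelled reads are total minus labelled reads. Medians of ratios over genes, and counts of genes above or below DMSO at a single time, used a pseudocount of 0.5. Ratios of single genes used raw counts without it. Exact 95% intervals (Clopper-Pearson) on ratios and shares hold only counting error, as reads without molecular identifiers are not independent molecules. On simulated counts of 11797 genes the test for AZ-5576 against DMSO in total RNA recovered 100% of slopes of −0.4 and 62.0% of slopes of −0.2. In the simulation each slope was given to 50 genes and most genes had none, with the same scatter for all genes and no curvature. In the data 73.3% of genes fell relative to DMSO, so these shares do not give the power of the test here. Symbols and positions are from GENCODE v29 (GRCh38), and promoter windows are from RefSeq (GRCh38.p14). Gene pairs that overlap on opposite strands could not be told apart, since no source used here states whether counting used strand.

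The members, lists and tests were chosen with earlier results of these data known. Named genes are a panel of 14 (CCNA2, CCNB1, CDK1, PLK1, AURKA, FOXM1, CDC20, PTTG1, BUB1B, AURKB, BIRC5, KIF20A, TOP2A and MKI67) and the 4 lowest and 4 highest of the 45 in each of the slope comparisons of total RNA with DMSO, in total and labelled RNA in DMSO, and in labelled RNA between AZ-5576 and DMSO, with the 3 lowest and 3 highest of the wider mitotic list. Any other gene was named after its values were seen. Alternatives were TMM scaling, median-of-ratios factors on fly genes, DESeq2 1.42.0, no count filter or a mean of at least 100, time levels in place of slopes, and libraries left out.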

Additional observations from a re-analysis of the deposited data

How the results depend on the processing

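Counts of the 45 genes called (44 in labelled RNA) moved by over 1.5 times under these settings. These counts pool genes called higher and lower. With TMM scaling 26 were called between AZ-5576 and DMSO (24 lower and 2 higher, beside 27.6% and 20.6% of all genes). Between JQ1 and DMSO 8 were called (1 lower and 7 higher, beside 7.72% and 5.49%). In AZ-5576 from the 0 h level, 10 were called (6 lower and 4 higher, beside 13.4% and 8.26%). In labelled RNA TMM scaling gave 8 between AZ-5576 and DMSO and 9 between AZ-5576 and JQ1, all lower, beside 3.75% and 3.6%. In labelled RNA in DMSO it gave 19 (9 lower and 10 higher, beside 26.3% and 22.9%). With time levels, where each inhibitor has a constant offset, 0 were called in each comparison of arms. DESeq2 called 1 in labelled RNA between AZ-5576 and DMSO. Without the count filter 0 were called in labelled RNA between AZ-5576 and JQ1. Without the 0 h and AZ-5576 2 h libraries they were 7 between JQ1 and DMSO in total RNA and, in labelled RNA, 8 between AZ-5576 and DMSO and 6 between AZ-5576 and JQ1. The cause was not tested. Leaving out 1 library at a time gave 31 to 44 calls between AZ-5576 and DMSO in total RNA, 0 to 6 between JQ1 and DMSO, 18 to 41 between AZ-5576 and JQ1, and from 0 h 9 to 33 in DMSO, 2 to 30 in JQ1 and 0 to 40 in AZ-5576. In labelled RNA it gave 0 to 7 between AZ-5576 and DMSO, 0 to 7 between AZ-5576 and JQ1 and 17 to 42 in DMSO. Shares of all genes are not given for runs with libraries left out, so those counts are not compared with all genes. The labelled comparison of JQ1 with DMSO stayed at 0 under all settings run, with an unadjusted p under 0.05 in 0 to 4 genes. The slopes in JQ1 and AZ-5576 from 0 h were added after seeing the data.

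Some called genes changed sign. With TMM scaling, the total slope difference between AZ-5576 and DMSO was 0.0145 in CCNB1, 0.0122 in CDC25B, 0.0231 in BUB3, 0.025 in PTTG1, 0.0556 in NUSAP1, 0.0162 in HMMR and 0.0066 in SMC2, and that between AZ-5576 and JQ1 was 0.0237 in BUB3 and 0.0044 in PRC1. With 1 library left out, the difference between AZ-5576 and JQ1 ran from −0.155 to 0.016 in KIF14 and from −0.143 to 0.000312 in PRC1, above 0 only without JQ1 8 h. The labelled slope in DMSO with TMM scaling, which by construction removes the loss common to all genes, was 0.000608 in CCNA2, 0.0891 in CCNB2, 0.00721 in CDK1, 0.0247 in CDC25B, 0.0417 in CDC25C, 0.0742 in PLK1, 0.0358 in BUB1B, 0.0614 in MAD2L1, 0.0359 in CDC20, 0.0634 in ESPL1, 0.147 in PTTG1, 0.00799 in KIF11, 0.111 in KIF4A, 0.0278 in CENPE, 0.0212 in NUSAP1, 0.0528 in DLGAP5, 0.0462 in HMMR, 0.00256 in KIF14, 0.0595 in ANLN, 0.108 in NCAPD2, 0.083 in NCAPG and 0.00901 in SMC4. With 1 library left out it ran from −0.078 to 0.000229 in PTTG1, above 0 only without DMSO 8 h. No paired analysis was possible because the labels number no replicates and each condition has 1 library, apart from matching the arms by chase time, as the fit with time levels did.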
